A study of Mus musculus with 6 samples.

Results

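Tuft cells are chemosensory epithelial cells, and the genes followed here are markers by which they are recognised in gut, airway and thymus, apart from the taste-type cascade and the lineage transcription factors. The set held 10 genes (Il25, Il17rb, Dclk1, Lrmp, Rgs13, Chat, Ly6g6f, Cd300lf, Nrep and Kctd12), and a member was taken when its symbol stood in the first column of the deposited count table. Of the 10, 9 are among the 9088 listed genes, and Ly6g6f, a gene of the Ly6 cluster that encodes a transmembrane protein of the immunoglobulin superfamily, is not. Ly6g6f was therefore not analysed here.

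Tuft cells were sorted from thymi of young male wild-type mice, spun down to aggregates and kept in culture for 12 h and, after a change of medium, for another 24 h. Cells then received recombinant interleukin 13 (rIL-13) at 20 ng/mL for 24 h, or PBS as vehicle for the same time, with 3 libraries in each group and no genetic change in either. Bulk RNA libraries were made by MARS-seq, which tags each captured polyadenylated molecule with a unique molecular identifier (UMI) near its 3' end. The labels do not say whether replicates were separate animals or cultures, so the spread between them may be technical. The comparison asks how the cytokine shifts tuft cell transcripts.

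Tuft cells are known as a main epithelial source of interleukin 25 (IL-25), a cytokine of the IL-17 family that stimulates group 2 innate lymphoid cells. In the intestine those lymphoid cells release IL-13, which acts on the epithelium and raises tuft cell numbers. Tuft cells also make acetylcholine and carry a set of kinases, G protein regulators and surface receptors whose roles in the thymus are less well described.

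With rIL-13 none of the 9 listed markers passed the test for a change. Levels were nevertheless uneven between libraries. Each of the 9 was lowest, within the rIL-13 group, in rIL-13 replicate 1, against 34.9% of all listed genes. For Lrmp, Kctd12, Cd300lf, Rgs13, Dclk1 and Il17rb the highest levels of the 6 libraries were in rIL-13 replicates 2 and 3. The share of all listed genes with that order was not counted. Rgs13 and Dclk1 differed most from vehicle in rIL-13 replicates 2 and 3. Il17rb was the single marker whose groups did not overlap once scaled to library size. All its rIL-13 libraries were above all vehicle libraries, as for 5.12% of all listed genes, while its UMI counts did overlap.

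The 9088 listed genes held 248028 to 295614 UMIs in the rIL-13 libraries and 394513 to 489919 in the vehicle libraries. Of 10 defining tuft markers, 9 were listed, Trpm5 and Avil among them, and Gfi1b was not. Their summed level was 3879, 6063 and 6526 CPM (UMI counts scaled to library size, with factors from the trimmed mean of M values, TMM) in rIL-13 replicates 1, 2 and 3, against 3666, 4340 and 4013 CPM in vehicle replicates 1, 2 and 3. Fibroblast markers, with 11 of 12 listed, summed to 7647, 4149 and 3164 CPM with rIL-13 and 7191, 5701 and 7532 CPM with vehicle, most of it Vim. Lymphoid markers were scarce: 1 of 10 thymocyte markers (Themis) and 1 of 6 B cell markers (Cd79b) were listed, at summed levels of 0 to 18.4 CPM and 31.8 to 59.6 CPM over the 6 libraries. Of 10 myeloid and dendritic markers, Cd68 and Csf1r were listed, at 15.5 to 126 CPM with rIL-13 and 53.2 to 187 CPM with vehicle. In bulk RNA, fewer cells of a type and less RNA per cell cannot be told apart.

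All members are annotated as protein-coding in GENCODE M21 on mm10. Il25 (chromosome 14, 54932695 to 54935837, plus strand), Il17rb (14, 29996135 to 30008896, minus), Chat (14, 32408203 to 32465989, minus) and Kctd12 (14, 102976581 to 102982637, minus) share a chromosome. The plus strand carries Dclk1 (chromosome 3, 55242364 to 55539068) and Lrmp (6, 145115653 to 145174934), and the minus strand Rgs13 (1, 144138654 to 144177372) and Cd300lf (11, 115116214 to 115133992). Dclk1 has 11 annotated coding transcripts with 10 distinct 3' ends, so its count may add up several isoforms. Il17rb overlaps the listed gene Actr8 on the opposite strand by 10220 bases, and Cd300lf lies wholly within Rab37, which is on the opposite strand and not among the listed genes. Whether strand was used in counting is not given in the sources used here, so reads of these overlapping pairs may not have been told apart. Actr8 had 6, 7 and 6 UMIs with rIL-13 and 13, 12 and 19 with vehicle.

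RefSeq promoter windows on GRCm38.p6, from 250 bases before to 50 bases after an annotated start, were at hand for 6 of the 9 listed members, in 7 windows. They were searched for the octamer ATGCAAAT on either strand, the element bound by POU factors such as the tuft cell regulator POU2F3, and for TTC and GAA with 4 bases between them, a palindrome of the kind bound by STAT6. The octamer was found in the Kctd12 window and the palindrome in the upstream one of the Dclk1 windows, and the windows of Rgs13, Il17rb, Cd300lf and Chat held neither. Of all 32851 windows in the RefSeq table, 1.74% hold the octamer and 6.95% the palindrome. These windows are shown because they are the ones among the members' windows that hold a match. Matches are in capitals, starting 160 bases before the start of Kctd12 and 237 bases before that of Dclk1, and a match is a run of letters, not a known binding site.
Kctd12, chr14:102982588-102982887, minus strand: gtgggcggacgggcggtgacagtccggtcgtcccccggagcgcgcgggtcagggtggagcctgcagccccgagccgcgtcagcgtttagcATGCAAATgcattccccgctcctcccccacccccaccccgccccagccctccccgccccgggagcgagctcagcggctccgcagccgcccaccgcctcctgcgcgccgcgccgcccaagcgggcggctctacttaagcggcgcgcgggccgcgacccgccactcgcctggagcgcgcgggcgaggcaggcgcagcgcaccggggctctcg
Dclk1, chr3:55242114-55242413, plus strand: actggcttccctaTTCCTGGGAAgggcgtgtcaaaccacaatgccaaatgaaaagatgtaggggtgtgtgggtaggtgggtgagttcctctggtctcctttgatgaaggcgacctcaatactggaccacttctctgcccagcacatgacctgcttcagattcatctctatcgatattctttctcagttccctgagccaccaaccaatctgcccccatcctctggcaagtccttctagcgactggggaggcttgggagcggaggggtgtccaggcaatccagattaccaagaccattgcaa

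The markers spanned a wide range of levels. MARS-seq counts molecules by their 3' ends, so CPM values were compared between genes without division by length. Averaged over 6 libraries, Lrmp stood at 1517 CPM, rank 84 of the 9088 listed genes, and Nrep at 431 CPM, rank 393. Kctd12 followed at 123 CPM, Cd300lf at 82.4 CPM, Rgs13 at 69.8 CPM, Dclk1 at 39.5 CPM, Il17rb at 25.9 CPM, Il25 at 22.7 CPM and Chat at 8.32 CPM. Lrmp was above Nrep, and Nrep above Kctd12, without overlap between their ranges over the 6 libraries. From Kctd12 down, each marker's range overlapped that of the next. Kctd12 exceeded Cd300lf in 5 of 6 libraries. Il17rb was above Il25 in 2 libraries, equal to it in 3 and below it in 1. The order of the means also differed between the groups. Rgs13 averaged 94.1 CPM and Cd300lf 86.4 CPM with rIL-13, against 45.5 and 78.4 CPM with vehicle. In rIL-13 replicate 1, however, Rgs13 (24.8 CPM) was below Cd300lf (49.5 CPM). Il17rb averaged 34.7 CPM and Il25 25.6 CPM with rIL-13, against 17.0 and 19.7 CPM with vehicle. Il17rb and Il25 were equal in vehicle replicates 1 and 2, so their vehicle order came from vehicle replicate 3 (5 and 9 UMIs). Il25, the best known tuft cell cytokine, was thus a low transcript here, at the 36.1 percentile of listed genes, while Lrmp was at the 99.1 percentile.

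**Figure D1:**
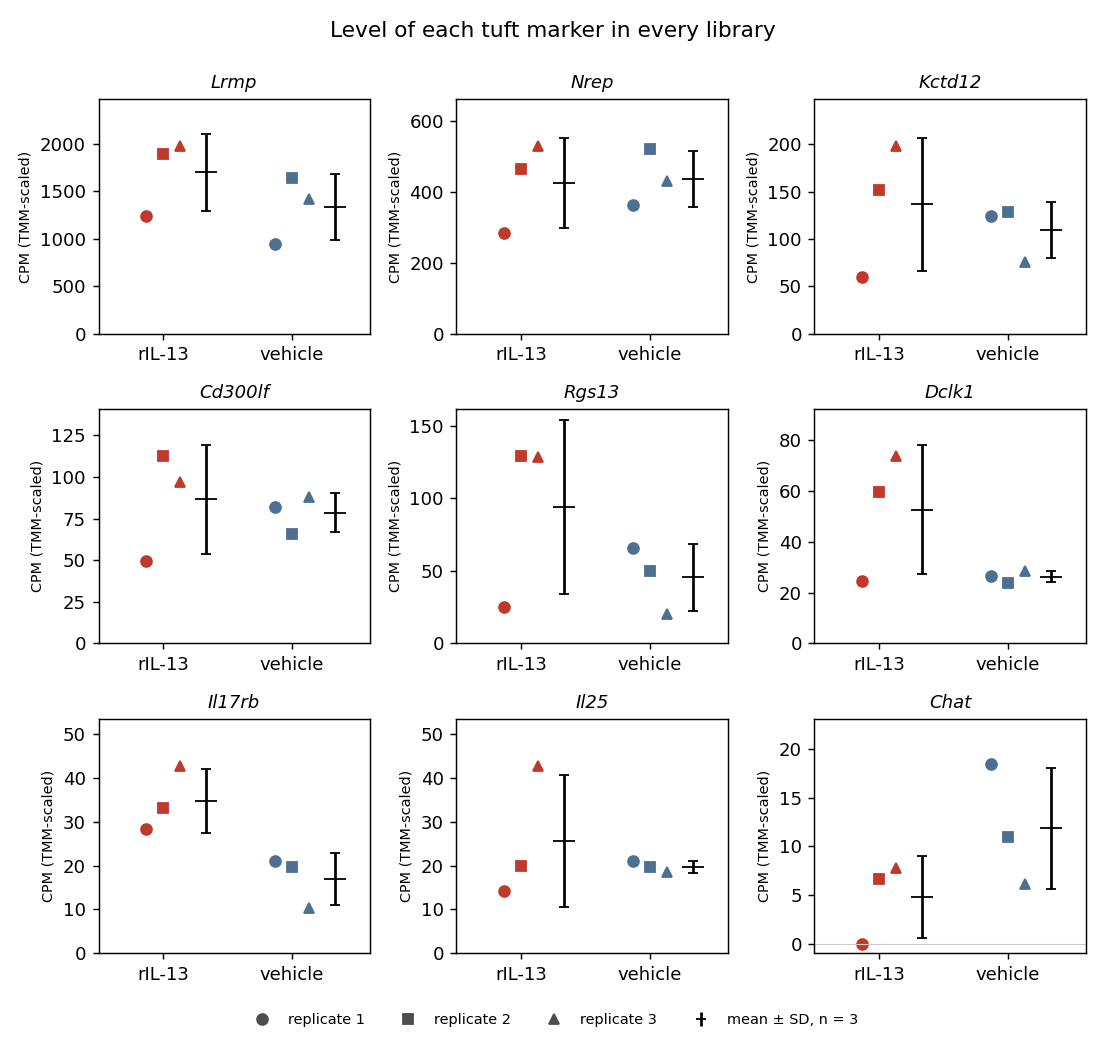
Level in CPM (TMM-scaled UMI counts, linear axes from 0, a little below 0 for Chat) of the 9 listed tuft markers in each rIL-13 library (red, left) and vehicle library (blue, right), with replicate numbers as marker shapes and the mean ± SD (n = 3) as bars. In every panel rIL-13 replicate 1 is the lowest of its group, and only for Il17rb do all rIL-13 libraries lie above all vehicle libraries.

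Together the 9 markers held 0.164%, 0.302% and 0.321% of UMIs in rIL-13 replicates 1, 2 and 3, against 0.160%, 0.248% and 0.209% in vehicle replicates 1, 2 and 3. The mean share was 0.262 ± 0.0853% in the rIL-13 group and 0.206 ± 0.0438% in the vehicle group (SD, n = 3 each), a difference smaller than the larger SD. Lrmp made up 56.8 to 71.8% of these UMIs. Without Lrmp, the other 8 markers held 0.0463%, 0.103% and 0.116% with rIL-13 and 0.0692%, 0.0839% and 0.0676% with vehicle, so rIL-13 replicate 1 lay below every vehicle library and rIL-13 replicates 2 and 3 above every one.

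Across the whole table, edgeR's quasi-likelihood test called 5 genes higher and 2 lower with rIL-13 at a Benjamini-Hochberg adjusted p under 0.05, or 0.0770% of 9088 genes. None of the 9 markers was among them, and none passed with DESeq2 or limma voom (0 of 9 each). At an unadjusted p under 0.05, edgeR gave 1 of 9 markers, Dclk1, against 5.38% of all genes. The median log2 fold change of the markers was 0.35, against -0.02 over all genes tested, and 7 of 9 were positive, against 48.4% of all genes. All rIL-13 libraries lay above all vehicle libraries for 1 of 9 markers, against 5.12% of genes. The authors' deposited table, read here as rIL-13 over vehicle, gave the markers log2 fold changes between -1.29 (Chat) and 1.06 (Rgs13), and their smallest unadjusted p was 0.0666 (Rgs13).

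**Figure D2:**
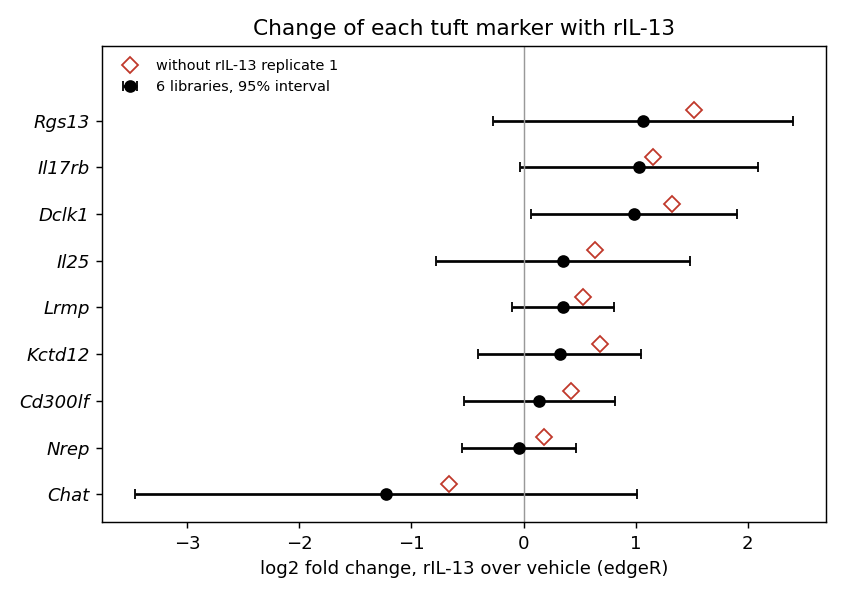
Log2 fold change of rIL-13 over vehicle from edgeR for each of the 9 listed markers, with 95% intervals from all 6 libraries (black) and the value without rIL-13 replicate 1 (open red diamonds, no interval drawn). The interval of each marker but Dclk1 includes 0, and the values without rIL-13 replicate 1, the lowest of its group for all 9, lie further to the right by construction.

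Il25 and Il17rb encode a tuft cell cytokine and the subunit of its receptor that binds it. Il25 had 4, 6 and 11 UMIs (14.2, 19.9 and 42.8 CPM) in rIL-13 replicates 1, 2 and 3, against 8, 9 and 9 UMIs (21.1, 19.6 and 18.4 CPM) in vehicle replicates 1, 2 and 3. The vehicle libraries were close together, and the rIL-13 libraries lay on both sides of them. Its log2 fold change was 0.35 ± 0.55 (SE, n = 3 per group; edgeR adjusted p = 0.975), with a 95% interval from -0.78 to 1.49 that holds both a fall and a rise of more than 1.5-fold. Without rIL-13 replicate 3 it was -0.20.

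Il17rb had 8, 10 and 11 UMIs (28.3, 33.1 and 42.8 CPM) with rIL-13 and 8, 9 and 5 UMIs (21.1, 19.6 and 10.2 CPM) with vehicle. All 3 rIL-13 libraries were above all 3 vehicle libraries in CPM, with means of 34.7 ± 7.36 and 17.0 ± 5.90 CPM (SD, n = 3 each). The log2 fold change of 1.03 ± 0.52 did not pass (edgeR adjusted p = 0.896), and its 95% interval ran from -0.03 to 2.09. It stayed between 0.59 and 1.20 under 13 alternative settings. The counts are so few that the spread within each group was at or below counting noise, with a chi-square per degree of freedom of 0.42 with rIL-13 and 0.955 with vehicle (counting noise alone gives about 1).

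Of 16 other genes of the IL-25 receptor pathway, chosen for their place downstream of the receptor or beside IL-25, 12 were listed and none passed in either direction (edgeR; median log2 fold change 0.02, with -0.02 over all genes). Il17ra, the shared chain that pairs with IL-17RB, was at 0.46 ± 0.38 (edgeR adjusted p = 0.954). Its UMIs were 29, 22 and 9 with rIL-13 and 20, 19 and 29 with vehicle. Tab2, an adaptor of the kinase TAK1, was at 0.37 ± 0.37 (adjusted p = 0.959).

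Chat encodes choline acetyltransferase, the enzyme that makes acetylcholine. It had 0, 2 and 2 UMIs in rIL-13 replicates 1, 2 and 3, against 7, 5 and 3 UMIs in vehicle replicates 1, 2 and 3. A count of 0 in rIL-13 replicate 1 allows up to 10.6 CPM (3 UMIs, counting error only), which is above the 6.62 and 7.77 CPM of the other rIL-13 libraries. The log2 fold change of -1.23 ± 1.09 did not pass (edgeR adjusted p = 0.958), and at this depth its 95% interval, -3.46 to 1.01, covers a doubling. Of 18 genes for acetylcholine and choline handling, 9 were listed and none passed (edgeR; median log2 fold change -0.07). The choline transporter-like gene Slc44a1 was at 2.49 ± 1.23 on 2, 7 and 3 UMIs with rIL-13 and 0, 2 and 1 with vehicle (adjusted p = 0.896). Slc44a2 was at -0.22 ± 0.32 (adjusted p = 0.974).

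Dclk1 encodes a doublecortin-like kinase that binds microtubules and is the classic histological marker of intestinal tuft cells. It had 7, 18 and 19 UMIs (24.8, 59.6 and 73.8 CPM) in rIL-13 replicates 1, 2 and 3, against 10, 11 and 14 UMIs (26.4, 24.0 and 28.7 CPM) in vehicle replicates 1, 2 and 3. Vehicle libraries were close to each other, rIL-13 replicate 1 fell among them, and rIL-13 replicates 2 and 3 were above all 3. The log2 fold change was 0.98 ± 0.45 (95% interval 0.06 to 1.91), with an unadjusted p of 0.0369 and an edgeR adjusted p of 0.896. Without rIL-13 replicate 1 it was 1.32, still short of the threshold (edgeR adjusted p = 0.218). The upstream one of its promoter windows holds the palindrome shown above, as do 6.95% of all windows. A link between this match and the Dclk1 levels was not tested.

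Rgs13 encodes a regulator of G protein signalling, a class of protein that speeds GTP hydrolysis by G alpha subunits. It had 7, 39 and 33 UMIs (24.8, 129 and 128 CPM) with rIL-13 and 25, 23 and 10 UMIs (66.0, 50.2 and 20.5 CPM) with vehicle. Libraries of both groups were thus low: rIL-13 replicate 1 and vehicle replicate 3 were close to each other, and rIL-13 replicates 2 and 3 were above every vehicle library. Its log2 fold change was 1.06 ± 0.59 (95% interval -0.27 to 2.40; edgeR adjusted p = 0.896). Leaving out each library in turn gave values between 0.70, when vehicle replicate 3 was omitted, and 1.52, when rIL-13 replicate 1 was. The value without rIL-13 replicate 1 passed (edgeR adjusted p = 0.0466), when 0.704% of all genes passed. With rIL-13 replicate 1 and vehicle replicate 3 both left out, a choice made after seeing the data, it was 1.15 and did not pass (edgeR adjusted p = 0.184). Vehicle replicate 3 was the lowest of its group for 5 of the 9 markers, and for 32.7% of all listed genes. It was also the library with the most RNA of muscle-like markers. These markers, with 5 of 8 listed, summed to 219, 729 and 89.4 CPM with rIL-13 and 319, 742 and 2139 CPM with vehicle, and Des, which encodes the muscle filament desmin, was the single one to pass, lower with rIL-13 (log2 fold change -1.71 ± 0.29, edgeR adjusted p = 0.00753). The part of muscle-like RNA in the marker levels was not tested.

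Of 15 other RGS genes, 7 were listed and none passed (edgeR; median log2 fold change 0.31 with all libraries, 0.72 without rIL-13 replicate 1). Rgs16 had 43, 39 and 46 UMIs with rIL-13 and 18, 16 and 63 with vehicle, and was at 1.10 ± 0.39 (adjusted p = 0.725). Rgs9 was at 0.57 ± 0.42 (adjusted p = 0.935). In rIL-13 replicate 1 Rgs13 was low, while the UMIs of Rgs16 lay between those of the other rIL-13 libraries.

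Lrmp, also called Jaw1 or Irag2, encodes a membrane protein of the endoplasmic reticulum known to bind inositol trisphosphate (IP3) receptors. It had 1235, 1891 and 1974 CPM in rIL-13 replicates 1, 2 and 3, against 947, 1636 and 1419 CPM in vehicle replicates 1, 2 and 3. The groups overlapped, since rIL-13 replicate 1 was below 2 of 3 vehicle libraries. With 349 to 750 UMIs per library its error was the smallest of the 9, and the log2 fold change of 0.35 ± 0.22 did not pass (edgeR adjusted p = 0.896). Its 95% interval, -0.11 to 0.80, leaves out a rise of 1.75-fold or more. The spread between libraries was well beyond counting noise, at a chi-square per degree of freedom of 27.0 with rIL-13 and 37.2 with vehicle. Of 9 IP3 receptor genes and possible partners of Lrmp, 7 were listed and none passed (edgeR; median 0.02); the nuclear envelope genes Syne2 and Sun1 were at -0.63 ± 0.50 and 0.35 ± 0.46 (adjusted p = 0.943 and 0.971).

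Kctd12 encodes a tetramerisation-domain protein known in neurons as an auxiliary subunit of GABA-B receptors. It had 17, 46 and 51 UMIs (60.2, 152 and 198 CPM) with rIL-13 and 47, 59 and 37 UMIs (124, 129 and 75.7 CPM) with vehicle. The lowest and the 2 highest levels were all in the rIL-13 group. The log2 fold change of 0.32 ± 0.35 did not pass (edgeR adjusted p = 0.964; 95% interval -0.41 to 1.05), and it became 0.68 with rIL-13 replicate 1 left out and -0.03 with rIL-13 replicate 3 left out. Of 25 genes of the doublecortin and Kctd families and GABA-B receptors, 13 were listed and none passed (edgeR; median -0.01). Kctd9 and Kctd10 were at -1.35 ± 0.81 and -0.37 ± 0.25 (adjusted p = 0.896 and 0.910), and the GABA-B receptor genes Gabbr1 and Gabbr2 were not among the listed genes.

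Cd300lf encodes an inhibitory surface receptor of the CD300 family, which mouse norovirus uses to enter tuft cells of the gut and which myeloid cells also carry. It had 14, 34 and 25 UMIs (49.5, 113 and 97.2 CPM) with rIL-13 and 31, 30 and 43 UMIs (81.8, 65.4 and 88.0 CPM) with vehicle. The rIL-13 libraries again lay on both sides of the vehicle ones, and the log2 fold change was 0.14 ± 0.33 (edgeR adjusted p = 0.990; 95% interval -0.53 to 0.82). The listed myeloid markers summed to 24.8, 126 and 15.5 CPM in rIL-13 replicates 1, 2 and 3 and to 187, 183 and 53.2 CPM in vehicle replicates 1, 2 and 3; their part in the Cd300lf values was not tested. Of 15 genes of the Ly6 and CD300 families, 5 were listed and none passed (edgeR; median 0.68). Ly6g6d had 36, 31 and 40 UMIs with rIL-13 and 26, 30 and 23 with vehicle, and was at 1.09 ± 0.31 (adjusted p = 0.357). Ly6d was at 1.94 ± 0.56 (adjusted p = 0.540). No other CD300 gene of the list was among the listed genes.

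Nrep encodes a small protein known from neurons and also made by fibroblast-type cells. It lies at 33437019 to 33464029 on the minus strand of chromosome 18. It had 80, 140 and 136 UMIs (283, 464 and 529 CPM) with rIL-13 and 137, 238 and 210 UMIs (362, 519 and 430 CPM) with vehicle. Its log2 fold change was the nearest to 0 of the 9, at -0.04 ± 0.25 (edgeR adjusted p = 0.999), and its 95% interval of -0.55 to 0.47 leaves out a change of 1.5-fold either way. Nrep was lowest in rIL-13 replicate 1, the library with the highest summed fibroblast level, 7647 CPM, of which Vim gave 5025 CPM. In vehicle replicate 3 the fibroblast sum was 7532 CPM and Nrep was at 430 CPM. The part of fibroblast RNA in the Nrep values was not tested.

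The low level in rIL-13 replicate 1 was shared by all 9 markers, whereas 34.9% of all listed genes were lowest of their group in that library. Rgs13 averaged 129 CPM in rIL-13 replicates 2 and 3, which was 5.20 times its level in rIL-13 replicate 1. The same ratio was 2.91 for Kctd12, 2.69 for Dclk1, 2.21 for Il25, 2.12 for Cd300lf, 1.75 for Nrep, 1.56 for Lrmp and 1.34 for Il17rb. Over the 3198 genes with a mean of at least 20 UMIs the median ratio was 0.936. The ratio of Rgs13 was above that of 99.8% of these genes, that of Kctd12 above 98.9% and that of Lrmp above 88.3%. The 9 defining tuft markers gave a summed ratio of 1.62, and 7 of them were lowest in rIL-13 replicate 1. Pou2f3 (35.4, 29.8 and 19.4 CPM in rIL-13 replicates 1, 2 and 3) and Plcb2 (357, 331 and 350 CPM) were highest there. Gng13 alone gave 704, 1623 and 2192 CPM of the sum. Of 40 listed members of a wider tuft marker list, 33 were lowest in rIL-13 replicate 1. In that wider list 1 gene passed, the phosphatase gene Ptpn18, which was higher (edgeR adjusted p = 0.00462), none was lower, and the median was 0.48. This list was drawn up with earlier results of these libraries known, so its direction is no independent evidence. Summed ratios of the other marker lists lay on both sides of 1. They were 0.478 for fibroblast, 0.456 for endothelial (4 of 8 listed) and 0.485 for enteroendocrine and neuroendocrine markers (3 of 8 listed). In the last of these lists Chga passed, higher with rIL-13 (log2 fold change 4.03 ± 0.72, edgeR adjusted p = 0.0112). It had 21, 5 and 19 UMIs in rIL-13 replicates 1, 2 and 3 and 0, 2 and 2 in vehicle replicates 1, 2 and 3. The summed ratios were 1.27 for thymic epithelium (7 of 10 listed), 1.86 for muscle-like, 2.85 for myeloid and dendritic, 2.27 for thymocyte, 1.85 for B cell and 2.20 for ILC2 and mast cell markers (3 of 10 listed). Muscle-like markers summed to 219, 729 and 89.4 CPM in rIL-13 replicates 1, 2 and 3, and myeloid and dendritic markers to 24.8, 126 and 15.5 CPM. Their ratios thus came from rIL-13 replicate 2 alone. The thymocyte and B cell ratios rest on 1 gene each, Themis with 2, 5 and 4 UMIs and Cd79b with 9, 18 and 15. RNA of other cell types was thus not uniformly higher or lower in rIL-13 replicate 1, and its part in the marker levels was not tested.

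**Figure D3:**
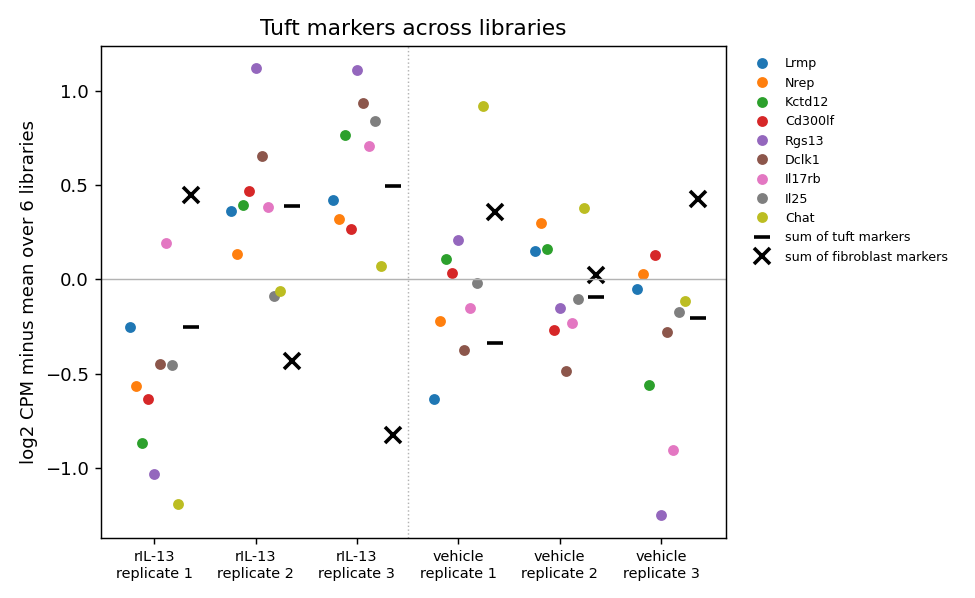
Level of the 9 listed markers in each library (coloured points, log2 CPM minus the gene's mean over 6 libraries), beside the summed defining tuft markers (bars) and summed fibroblast markers (crosses) on the same centred log2 scale; rIL-13 libraries are left of the dotted line. In rIL-13 replicate 1 all markers but Il17rb lie below 0, and in rIL-13 replicate 3 all lie above it.

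Since all 9 markers were lowest of their group in rIL-13 replicate 1, leaving it out raises each fold change by construction, and the values without it are given as a description. The median log2 fold change over the 9 was then 0.64, and Chat was at -0.67. Rgs13 was the single marker to pass, and Lrmp, at 0.53, and Kctd12, at 0.68, did not (edgeR adjusted p = 0.321 and 0.441). 

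Set against the summed UMIs of the 9 defining tuft markers, a scale chosen after seeing the data, the markers separated into different patterns. Lrmp had 318, 312 and 303 UMIs per 1000 tuft marker UMIs in rIL-13 replicates 1, 2 and 3, against 258, 377 and 354 in vehicle replicates 1, 2 and 3. On this scale the rIL-13 libraries differed by little for Lrmp, and they lay within the vehicle range. Nrep had 73.0, 76.5 and 81.0 with rIL-13 and 98.6, 120 and 107 with vehicle. Kctd12, at 15.5, 25.1 and 30.4 with rIL-13 and 33.8, 29.6 and 18.9 with vehicle, kept its low value in rIL-13 replicate 1. Rgs13 did so too, with 6.39, 21.3 and 19.7 with rIL-13 and 18.0, 11.6 and 5.10 with vehicle. Of the 9 markers, 6 were lowest of their group in rIL-13 replicate 1 on this scale, the exceptions being Lrmp, Il17rb and Il25, and 14.6% of all listed genes were lowest there on the same scale. No marker passed with this scaling (edgeR adjusted p = 0.644 for Nrep at -0.50), which also lowers the median log2 fold change of all genes to -0.42. Relative to that median Nrep was at -0.08.

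**Figure D4:**
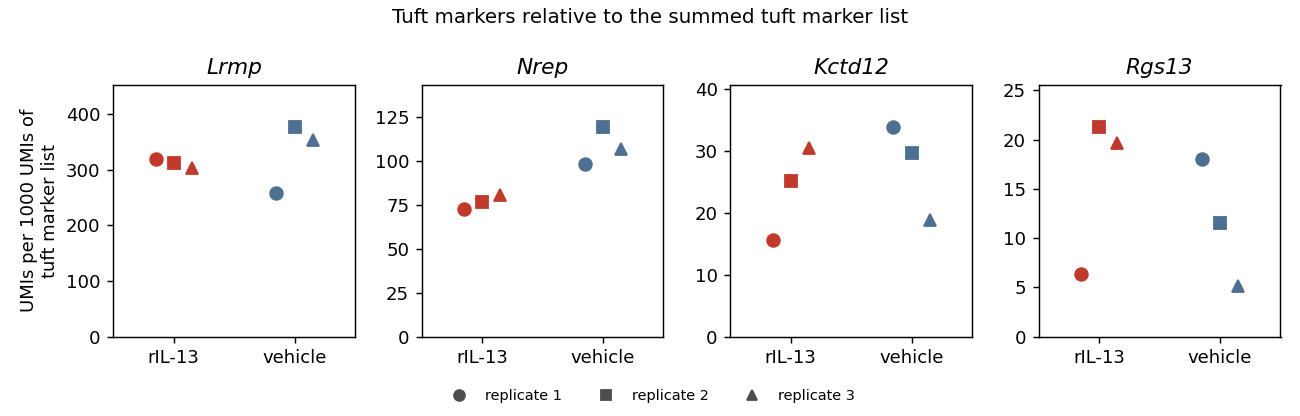
UMIs of Lrmp, Nrep, Kctd12 and Rgs13 per 1000 UMIs of the 9 listed defining tuft markers in each rIL-13 library (red, left) and vehicle library (blue, right), linear axes from 0, replicate numbers as marker shapes. The rIL-13 libraries lie between 303 and 318 for Lrmp, and between 6.39 and 21.3 for Rgs13.

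Profiles of the 5 markers with a mean of at least 20 UMIs were set beside those of 3197 other genes by the mean absolute difference of centred log2 CPM over 6 libraries, as a description. Nearest to Lrmp were Rab3a (0.09), Cldn7 (0.10) and Stx7 (0.10), with a median of 0.41 over all candidates. Nearest to Kctd12 were B2m (0.09), Chil1 (0.12) and Cdh2 (0.13), and nearest to Cd300lf were Dpy30 (0.05), Baiap2l1 (0.07) and Rdx (0.08). Nrep was closest to Arfgap2 (0.06), Tmem159 (0.06) and Chmp2a (0.07). For Rgs13 the distances were larger: its nearest, Prdx1, was at 0.28, followed by Psma4 (0.31) and St6galnac2 (0.34), with a median of 0.87. This measure grows with a gene's own spread and counting noise, and Rgs13 had the fewest UMIs of the 5, 22.8 per library on average. Prdx1 had 25, 73 and 81 UMIs with rIL-13 and 93, 58 and 22 with vehicle, low in the same libraries as Rgs13. None of these 15 neighbours is on the tuft marker lists used here.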

How the data were processed

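The authors deposited, per the file headers, raw UMI counts per gene, counts divided by size factors (a normalized signal, not used here), regularized log2 values (not used) and their own log2 fold changes and p-values, whose sign was turned. The submitters' processing notes name bcl2fastq, cutadapt, STAR 2.5.2b, HTSeq, DESeq2 and mm10, with no roles. The highest count of every listed gene is 6 UMIs or more, so the totals leave out rarer transcripts.

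All 9088 genes with at least 1 UMI were fitted with edgeR 4.0.16 (R 4.3.3; quasi-likelihood F test, robust, TMM, group as the only term). A call needed a two-sided p under 0.05 after Benjamini-Hochberg adjustment over all 9088 genes. Each standard error follows from F. This fit without a filter was preferred so that all listed members share 1 fit; edgeR's default filter keeps 5 of the 9 and 10 UMIs in 3 libraries keeps 6. Alternatives were DESeq2 1.42.0, limma 3.58.1 voom, other scaling, filters, thresholds, a replicate block and leaving out libraries. The tests were tried on simulated data. Members and lists were chosen with earlier results of these data known. Named genes were all members, the genes past the threshold or otherwise the 2 with the smallest p of each list, and the 3 nearest profiles. Intervals for counts cover counting error only.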

Additional observations from a re-analysis of the deposited data

How the results depend on the processing

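No marker passed under any alternative but 1, Rgs13 without rIL-13 replicate 1 (1 higher; 0 without each other library), and 118 of 128 marker values kept their sign. Leaving out 1 library gave a log2 fold change of -0.10 to 0.42 for Cd300lf, -0.20 to 0.64 for Il25, -0.030 to 0.68 for Kctd12 and -0.23 to 0.18 for Nrep. Nrep was at 0.16 with rIL-13 replicate 1 and vehicle replicate 3 both left out. Scaled to tuft marker UMIs, Il25 was at -0.11, Lrmp at -0.085, Cd300lf at -0.34 and Kctd12 at -0.19; the median of all genes was then -0.42. The markers' median lay between 0.06 (without rIL-13 replicate 3) and 0.64 over the libraries left out.

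Over all genes, leaving out 1 library gave 1 to 42 higher and 0 to 22 lower. Counts higher and lower were 2 and 1 with edgeR's default filter and with 10 UMIs in 3 libraries, 2 and 0 with limma voom, 22 and 13 with the replicate block, 37 and 39 with both libraries left out, and 1 and 0 scaled to tuft marker UMIs. Without rIL-13 replicate 1 they were 42 and 22, and without vehicle replicate 3 they were 8 and 16. Under a filter fewer genes are tested; otherwise the cause was not tested. The block called none of the 9 markers. Same-numbered libraries deviated from their group means with correlations of -0.08, 0.06 and -0.31 over 3198 genes. With 3 libraries in each group such correlations cannot decide whether same-numbered libraries were paired, and the labels do not say. Plain column totals moved no marker's CPM, and no group's share of UMIs, by more than 1 SD. For Il25, Il17rb and Chat, with 0 to 11 UMIs per library, depth limits what could be detected.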
